A study of Mus musculus with 8 samples.

Results

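The genes described here encode the machinery that docks, primes and fuses synaptic vesicles: synaptotagmins, VAMPs, syntaxins, SNAPs, complexins, synapsins, RIMs and RAB3 GTPases. They were chosen by symbol (Syt, Vamp, Stx, Syn, Cplx, Rims or Snap followed by a number, or Rab3a to Rab3d) among the 27998 genes listed. Of the 59 genes with such a symbol, 51 had at least 50 UMIs over the cells of both libraries and were kept as members. A UMI, or unique molecular identifier, marks 1 captured transcript molecule. Grouped by symbol, the members were 13 synaptotagmins, 13 syntaxins, 7 VAMPs, 5 SNAPs, 4 RIMs, 4 RAB3 genes, 3 synapsins and 2 complexins. The 5 SNAPs include Snap91, a clathrin adaptor that shares only its symbol with the others. Syt17, at 51 UMIs, lay just inside the threshold, and Syt12, at 33, just outside it. Stx11 had 21 UMIs, and Syt8, Syt10, Syt15, Stx19, Cplx3 and Cplx4 had 0 to 4.

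At a nerve terminal, a VAMP on the vesicle pairs with a syntaxin and a SNAP on the target membrane to form the SNARE complex, whose zippering drives fusion. Synaptotagmins sense calcium, complexins bind the assembled SNAREs, RIMs scaffold the active zone, RAB3 proteins bring vesicles to it and synapsins hold vesicles in reserve. Close relatives such as SNAP23, VAMP3, syntaxin 4 and VAMP8 serve secretion and endosomal traffic in non-neuronal cells, so the SNARE families mix neuronal and general members. In the embryonic cortex, radial glia give rise to intermediate progenitors, these to neurons, and neurons migrate and mature before most synapses form.

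Single-cell RNA-seq by the 10x Genomics Chromium droplet method was performed on CD1 mouse cortex at embryonic day 16.5. One group was wild type littermates, and the other (ShhN) came from brains electroporated in utero at E13.5 with a plasmid for ShhN, the signalling fragment of sonic hedgehog. In utero electroporation delivers plasmid to some of the progenitors lining the ventricle, so not every cell of the ShhN group carries it, and the promoter of the plasmid is not given in the sources used here. Whether the littermates were electroporated with anything else is not stated in the labels. Each group has 4 labelled samples, but the data are 1 matrix per group whose barcodes carry a single suffix, so the sample of origin of a cell is unknown and each group counts as 1 library. The tissue was taken under a fluorescence stereoscope, and papain was used to free the cells. No difference between the groups therefore has a replicate check, and no p-value is given. The intervals below are exact 95% intervals that cover counting error only.

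The wild type matrix held 63760199 UMIs and the ShhN matrix 69470062, and 6952 and 8072 cells remained after filters and doublet removal, with medians of 6277.5 and 6684 UMIs per cell. The libraries shared 79 cell barcodes, against 81.6 expected if they were independent. The cells fell into 23 clusters, and 19 of these were named from marker genes as classes; such names are written as "like", since they were rebuilt here. The vascular-like cluster (48 and 34 cells) was led by the mural gene Rgs5 and also held the endothelial gene Cldn5. The 7 erythroid markers, haemoglobin genes among them, summed to 2832 CPM in wild type and 668 CPM in ShhN migrating neuron-like cells, and they were lower in ShhN in every neuronal class compared but higher in dividing progenitor-like cells, at 991 and 4098 CPM. Their part in the results was not tested. CPM are UMIs per 1000000 UMIs summed over the cells of a class in a library.

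Members made up more of the RNA in neurons than in progenitors. Per 10000 UMIs, all members together had 14.5 UMIs in wild type and 15.1 in ShhN radial glia-like cells, 18.8 and 17.2 in neurogenic intermediate progenitor-like cells, and 25.3 and 25.3 in migrating neuron-like cells. The sums were 34.3 and 31.5 in upper layer neuron-like cells and 35.5 and 32.6 in deep layer neuron-like cells. Vascular-like cells, which form no synapses, had 12.9 and 12.8. The order from progenitor to settled neuron was the same in both libraries, and radial glia-like cells lay close to the vascular-like level.

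**Figure D1:**
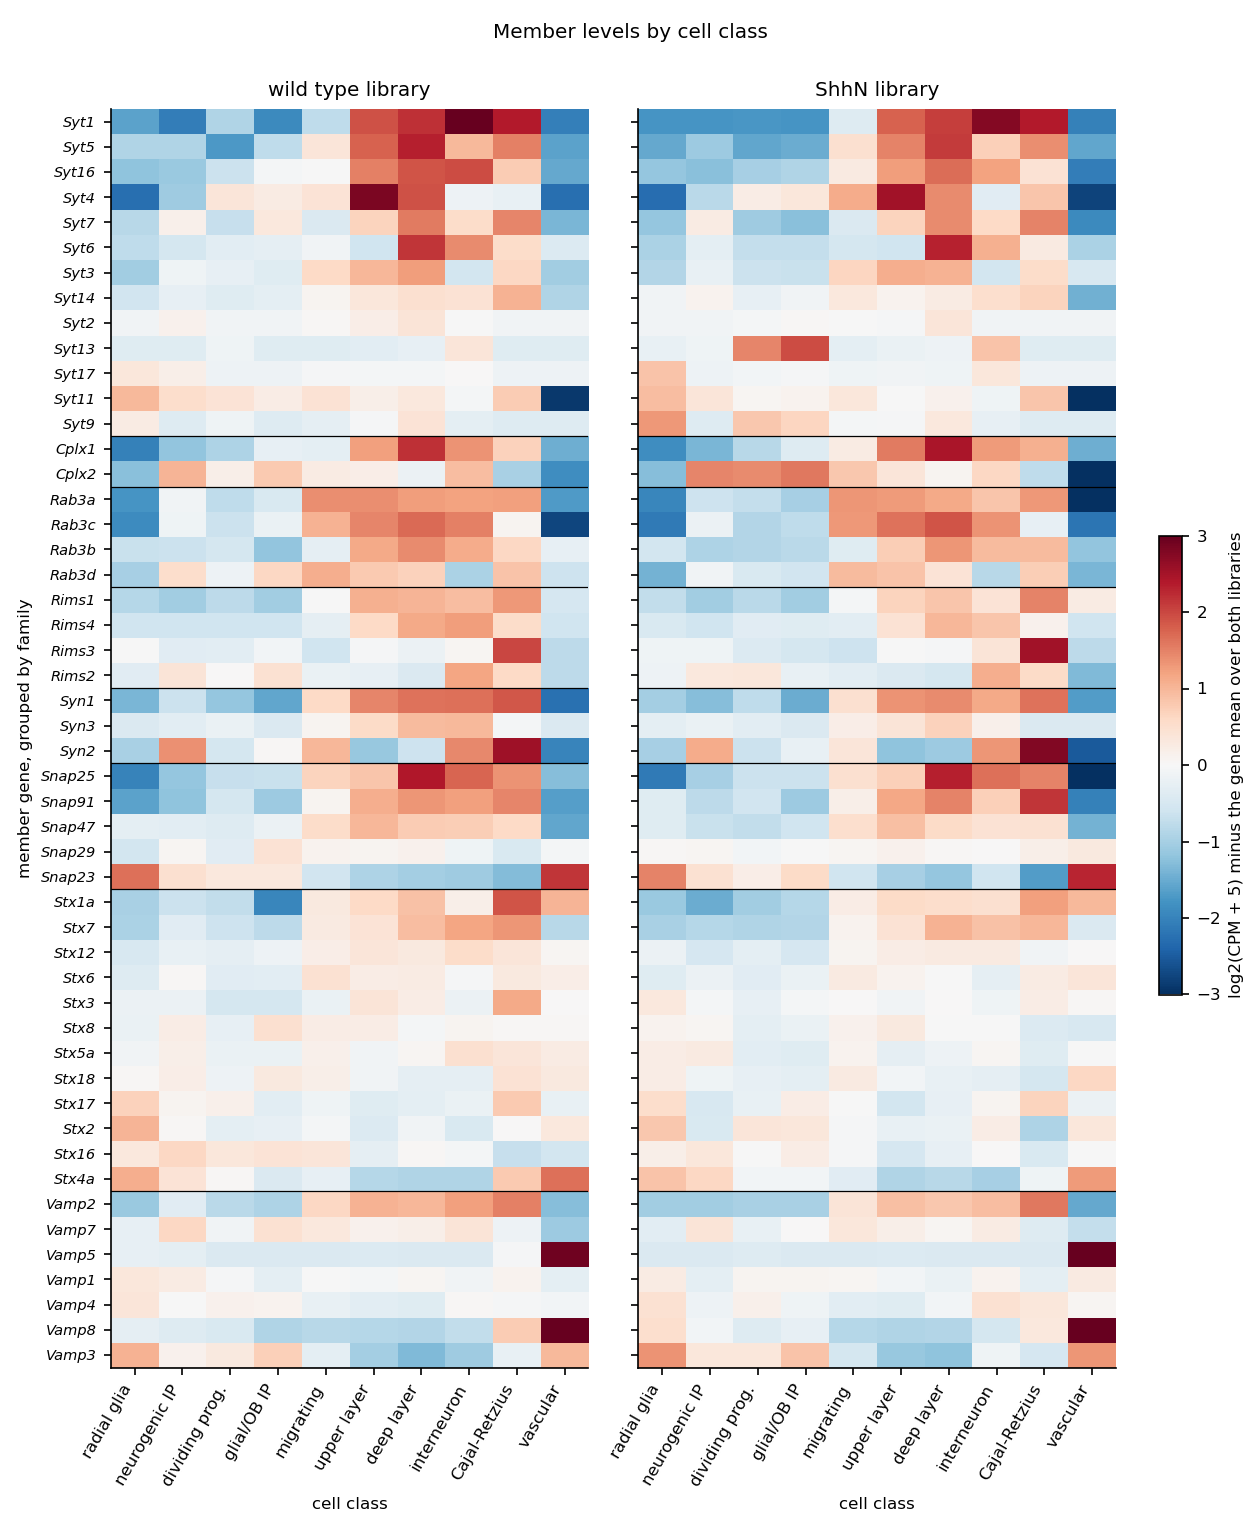
Colour map of 50 of the 51 members (rows, grouped by family) in 10 cell classes (columns), wild type on the left and ShhN on the right; colour is log2(CPM + 5) minus the mean of the gene over both panels. Most members are red in the neuronal columns and blue in radial glia and vascular cells, while Snap23, Vamp3 and Stx4a tend to the reverse, in both libraries.

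Between classes, each gene was compared only with itself, because UMI counts are not scaled to gene length. A member was called when it had at least 50 UMIs in the pair of sums, a log2 ratio beyond 1 in either direction, and an interval whose nearer bound was 0.5 or more from 0 on that side. Upper layer neuron-like cells exceeded radial glia-like cells in 23 of 41 measured members in wild type, where 14.1% of all genes were higher by the same rule, and in 22 of 42 in ShhN, where 14% were. Lower members numbered 4 in wild type and 5 in ShhN, against 13.4% and 16.9% of all genes. The median log2 ratio of the members was 1.69 in wild type and 1.62 in ShhN, beside -0.01 and -0.07 over all genes. Of the 40 members measured in both libraries, 22 were higher and 4 lower in both.

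The calcium sensor Syt1, the main trigger of fast release, was higher in upper and deep layer neuron-like cells than in migrating neuron-like cells. In wild type its level was 4.83 CPM in radial glia-like, 2.19 in neurogenic intermediate progenitor-like, 12.8 in migrating, 108 in upper layer and 133 in deep layer neuron-like cells. In ShhN the same classes had 3.89, 3.84, 18, 97.9 and 122 CPM. The highest levels were in GABAergic interneuron-like cells, at 293 CPM in wild type and 197 in ShhN. The vascular-like cells had 2.28 and 2.38 CPM, from 1 UMI in each library. Upper layer over radial glia-like cells had log2 ratios of 4.48 [3.43, 5.79] in wild type and 4.65 [3.61, 5.97] in ShhN.

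Syt4, a synaptotagmin of dense-core and recycling vesicles that lacks the usual calcium binding, peaked in upper layer neuron-like cells. Its levels there were 707 CPM in wild type and 569 in ShhN, against 368 and 261 in deep layer neuron-like cells. GABAergic interneuron-like cells had 84.2 and 73.9 CPM, with log2 ratios to the upper layer of -3.07 [-3.25, -2.89] and -2.95 [-3.19, -2.71]. Syt3 and Rab3d were also lower in interneurons than in the upper layer, though neither peaked there in both libraries: relative to upper layer neuron-like cells, Syt3 in interneuron-like cells had log2 ratios of -2.97 and -3.04, and Rab3d of -2.28 and -2.14. Syt6 was a deep layer gene among the cortical neurons, with 37.9 CPM in wild type and 43.1 in ShhN deep layer neuron-like cells against 1.37 and 1.43 in the upper layer. Syt6 was also among the 10 leading genes of deep layer cluster 11 and reached 20.9 and 15.3 CPM in interneuron-like cells. Syt11, which restrains vesicle recycling, was the synaptotagmin present at similar levels in most classes, from 366 and 353 CPM in radial glia-like cells to 178 and 168 in interneuron-like cells; the vascular-like cells were the exception at 20.5 and 11.9.

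Among the SNAREs, the neuronal set rose along the same path. Snap25, the plasma membrane SNAP of neurons, went from 8.97 and 7.78 CPM in radial glia-like cells to 93.7 and 86.4 in the upper layer and 290 and 275 in the deep layer. Its deep over upper layer log2 ratio was 1.63 [1.52, 1.74] in wild type and 1.67 [1.56, 1.78] in ShhN, and deep over upper layer calls were few otherwise: 4 of 44 members were higher in wild type (5.46% of all genes) and 2 of 43 in ShhN (5.63%), Snap25 and Syt6 in both. No member was lower in wild type (3.16% of all genes), and Syt4 was in ShhN (3.48%). Vamp2, the vesicle SNARE of synapses, had 36.6 and 38.9 CPM in radial glia-like cells and 180 and 164 CPM in the upper layer.

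A few SNAREs of general traffic ran the other way, and others did not. Snap23, the widely expressed counterpart of Snap25, had 45.6 and 40.0 CPM in radial glia-like cells, 66.0 and 73.7 in vascular-like cells, and 3.42 and 3.08 in upper layer neuron-like cells. Upper layer over radial glia-like cells, its log2 ratios were -3.73 [-4.34, -3.15] in wild type and -3.70 [-4.29, -3.13] in ShhN. Vamp3, an endosomal VAMP, fell from 89.0 and 110 CPM to 17.4 and 15.7 on the same comparison, and Stx4a, a plasma membrane syntaxin of general secretion, from 61.4 and 52.2 to 12.3 and 11.7. Stx17, which acts in autophagosome fusion, was the fourth lower member in both libraries, with log2 ratios of -1.61 and -1.76. The endosomal syntaxin Stx7, in contrast, was lowest in radial glia-like cells in both libraries (56.6 and 56.1 CPM), as was Stx6 of the trans-Golgi (66.3 and 67.8 CPM). Vamp8 and Vamp5 were highest in non-neural cells: Vamp8 had 143 and 114 CPM in vascular-like cells and 398 and 408 in the 6 and 12 neutrophil-like cells, and Vamp5 had 45.5 and 97.5 in vascular-like cells. Neither exceeded 0.171 CPM in upper layer neuron-like cells.

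**Figure D2:**
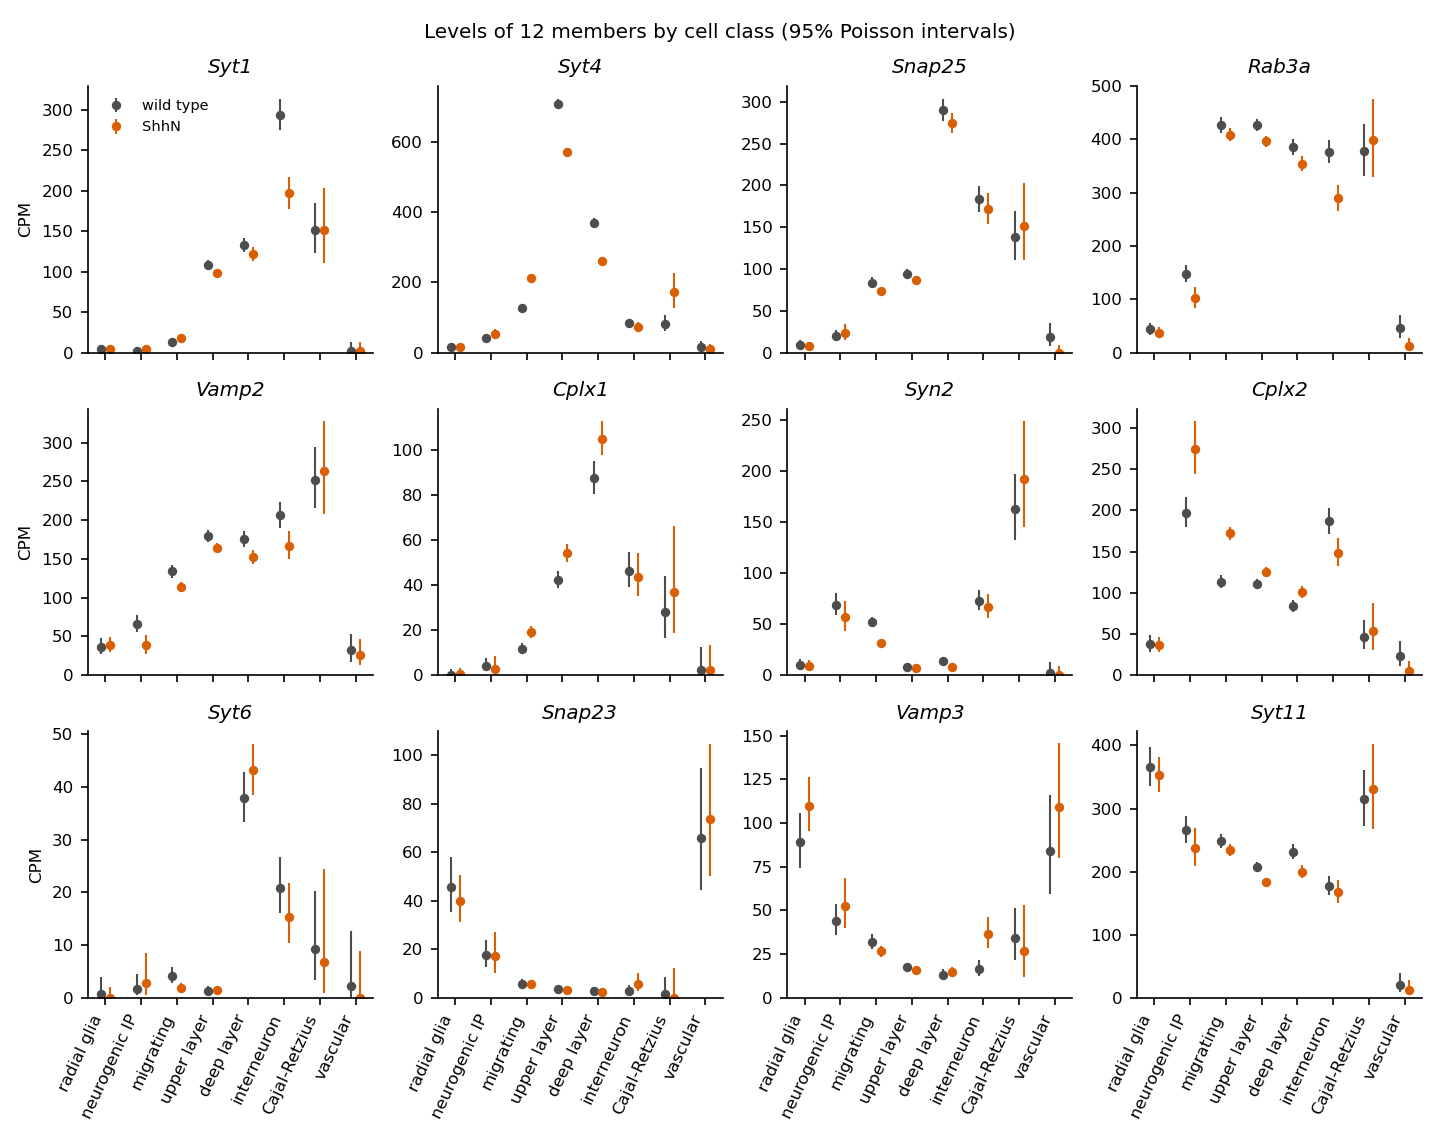
Level (CPM, vertical axis, from 0) of 12 members in 8 cell classes; points are the sums of each library (grey wild type, orange ShhN) and bars are 95% Poisson intervals. Snap25 and Syt6 peak in deep layer neurons, Syt4 in upper layer neurons, Syt1 in interneurons and Syn2 in Cajal-Retzius cells, and Snap23 and Vamp3 are highest in radial glia and vascular cells, with both libraries in nearly the same order.

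Some vesicle genes were already present in intermediate progenitors. Neurogenic intermediate progenitor-like cells exceeded radial glia-like cells in 6 of 22 measured members in wild type (6.03% of all genes) and 4 of 19 in ShhN (4.87%), and the same 4 were higher in both: Syn2, Cplx2, Rab3a and Syt4. Lower members numbered 2 in wild type (8.35% of all genes) and 1 in ShhN (10.5%). Cplx2, a complexin, had 37.3 and 36.7 CPM in radial glia-like and 197 and 274 CPM in intermediate progenitor-like cells. Rab3a, the main RAB3 of synapses, had 43.5 and 37.2 against 147 and 102 CPM, and rose to 427 and 409 in migrating neuron-like cells. Migrating neuron-like over intermediate progenitor-like cells, 12 of 36 members were higher in wild type (6.25% of all genes) and 14 of 37 in ShhN (5.84%), with 11 shared, while 1 (5.03%) and 2 (4.63%) were lower. Upper layer over migrating neuron-like cells, 11 of 42 (5.71%) and 12 of 42 (4.69%) were higher, 10 of them in both.

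Syn2 was the 1 lower member of that last step in both libraries, where 4.82% and 4.3% of all genes were lower. Synapsins coat the vesicle and tether it to its neighbours. Syn2 had 69.1 and 56.6 CPM in neurogenic intermediate progenitor-like cells, 51.8 and 31.6 in migrating neuron-like cells and only 7.96 and 7.36 in the upper layer. It was highest in Cajal-Retzius-like cells, at 163 and 192 CPM, and stood at 72.9 and 66.7 in interneuron-like cells. Syn1 had another order: 10.1 and 4.80 CPM in the intermediate progenitor-like cells, 30.4 and 27.8 in migrating neuron-like cells, 60.5 and 54.6 in the upper layer and 67.5 and 58.4 in the deep layer. Syn3 stayed at or below 8.29 CPM in the main neuronal classes. The paralogues thus had opposite orders between intermediate progenitors and upper layer neurons in each library.

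The promoters of Syn1 and Syn2 are shown because these paralogues had opposite orders between intermediate progenitors and upper layer neurons. Each runs from 250 bases before to 50 after a transcription start, is written 5′ to 3′ on the strand of the gene, and comes from RefSeq on build GRCm38.p6. Capitals in Syn1 (chrX:20920869-20921168, minus strand) mark TTCAGCACC, the left part of RE1, the element bound by REST, a repressor of neuronal genes in other cells, and TGACGTCA, the element bound by CREB.
Syn1: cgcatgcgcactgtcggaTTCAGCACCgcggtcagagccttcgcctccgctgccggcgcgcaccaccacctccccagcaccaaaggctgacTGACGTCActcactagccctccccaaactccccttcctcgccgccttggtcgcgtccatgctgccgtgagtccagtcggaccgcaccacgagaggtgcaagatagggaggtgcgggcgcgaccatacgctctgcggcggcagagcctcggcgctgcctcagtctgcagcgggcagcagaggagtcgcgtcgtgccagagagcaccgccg
Syn2 has 2 listed starts, the first at chr6:115134652-115134951 and the second at chr6:115238744-115239043, both on the plus strand. Capitals in the second mark the E-box CAGATG, bound by NEUROD and NEUROG factors, which lies there on the opposite strand.
Syn2 first start: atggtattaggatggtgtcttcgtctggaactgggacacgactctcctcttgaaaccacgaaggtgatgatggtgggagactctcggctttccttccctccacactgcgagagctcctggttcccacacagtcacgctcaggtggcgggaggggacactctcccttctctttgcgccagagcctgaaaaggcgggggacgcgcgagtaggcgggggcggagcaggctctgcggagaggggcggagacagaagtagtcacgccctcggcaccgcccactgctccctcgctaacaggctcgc
Syn2 second start: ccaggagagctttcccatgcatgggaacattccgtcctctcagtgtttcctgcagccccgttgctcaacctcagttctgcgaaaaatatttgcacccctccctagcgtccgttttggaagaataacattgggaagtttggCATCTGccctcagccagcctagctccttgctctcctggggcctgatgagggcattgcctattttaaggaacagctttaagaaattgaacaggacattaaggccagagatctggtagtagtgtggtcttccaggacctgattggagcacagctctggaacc
Promoters were listed for 38 of the 51 members, 49 in all. On both strands, TTCAGCACC and TGACGTCA each occurred in 1 of these 49, that of Syn1, and in 0.371% and 1.79% of all 32851 promoters. CAGATG occurred in 4 of 49 (8.16%), those of Rims3, Snap91, Syn2 and Vamp5, and in 17.2% of all promoters. The GLI consensus GACCACCCA, bound by the transcription factors of the hedgehog pathway, occurred in 0 of 49 and in 0.253% of all. No 2 of the marked motifs overlap, and a match is a description of these letters, not a site. Member promoters had a median GC content of 62.3%, against 52.7% for all promoters.

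A few members were higher in interneuron-like or Cajal-Retzius-like cells than in the upper layer, in numbers small enough that they are given as values of single genes. Relative to upper layer neuron-like cells, interneuron-like cells were higher in 4 of 42 members in each library (5.13% of all genes in wild type, 6.24% in ShhN) and lower in 3 (6.23% and 4.62%). Syn2, Syt1 and Rims2 were higher in both libraries. Rims2, an active zone scaffold, had 23.2 and 21.4 CPM there against 5.48 and 4.20 in the upper layer, while Rims1 did not share this order, at 14.6 and 8.66 against 16.3 and 11.3. Cajal-Retzius-like cells, the early neurons of the outermost layer, were higher in 5 of 41 members in wild type (8.84% of all genes) and 3 of 40 in ShhN (6.93%), Syn2 and Rims3 in both. Rims3, a short RIM without the RAB3-binding part, had 29.4 and 43.8 CPM in Cajal-Retzius-like cells and at most 6.11 CPM in the other main neuronal classes. The members lower there in both libraries were Syt4, Cplx2 and Rab3c (lower calls of all genes 4.27% and 2.63%). Over the 14 classes and unnamed clusters compared, 31 members had the same highest class in both libraries, and for 8 it stood apart from the next by its interval in both. These were Snap25, Syt5 and Syt6 in the deep layer, Syt4 and Snap47 in the upper layer, Syn2 in Cajal-Retzius-like cells, and Vamp5 and Vamp8 in vascular-like cells. How many of all genes meet either criterion is not given here, so these are values of single genes, not a result about the members.

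Over all cells, the ShhN library had slightly lower levels of most members, and 1 member was called higher. That was Syt13, a synaptotagmin without calcium binding that is known from endocrine and neural cells, with 18 UMIs in wild type and 175 in ShhN (0.386 and 3.05 CPM; log2 ratio 2.98 [2.28, 3.77]). It was the only one of 50 measured members past the size rule, where 2.84% of all genes were higher and 1.83% lower. That count is not above the share of all genes, so it is a value of 1 gene. Syt13 also reached the minimum of 50 UMIs only through the ShhN library. Syt17, with 21 and 24 UMIs once doublets were removed, was not measured. The median log2 ratio of the members was -0.19, beside -0.08 over all genes, and intervals lay below 0 for 30 members and above 0 for 6. Under TMM scaling, which assumes that most genes are unchanged and moved every ratio up by 0.09, these counts were 27 and 10. How many of all genes had intervals on either side of 0 is not given here. The counts therefore describe the members and do not set them apart from other genes. Among the 8 members with most UMIs, 7 were lower in ShhN by 0.15 to 0.35 on the log2 scale: Rab3a (-0.23), Syt4 (-0.30), Syt11 (-0.15), Stx7 (-0.20), Snap47 (-0.24), Stx12 (-0.18) and Vamp2 (-0.35). The eighth was Cplx2, at 110 and 162 CPM and a log2 ratio of 0.56 [0.51, 0.61]. A lower share of a cell type and less RNA per cell cannot be told apart in these sums.

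The makeup of the libraries differed, and the all-cell ratios moved with it. Dividing progenitor-like cells were 1.81% of wild type and 10.0% of ShhN cells, and interneuron-like cells were 11.3% and 5.18%. When both libraries were given the class shares of wild type, the log2 ratio of the summed members went from -0.20 to -0.12 [-0.13, -0.11], and 40 of the 51 members came closer to 0. The median went from -0.18 to -0.10. Syt1, highest in interneurons, went from -0.57 to -0.28, Snap25 from -0.36 to -0.15 and Syn2 from -0.74 to -0.45. Cplx1, the complexin beside Cplx2 among the members, went from 0.03 [-0.06, 0.12] to 0.24 [0.15, 0.34], with its interval now above 0. Syt13 went from 2.98 to 1.56 [0.74, 2.38] and Cplx2 from 0.56 to 0.27 [0.22, 0.33]. These ratios depend on the weights: with ShhN class shares instead, the summed members had -0.09, Syt13 3 and Cplx2 0.54.

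**Figure D3:**
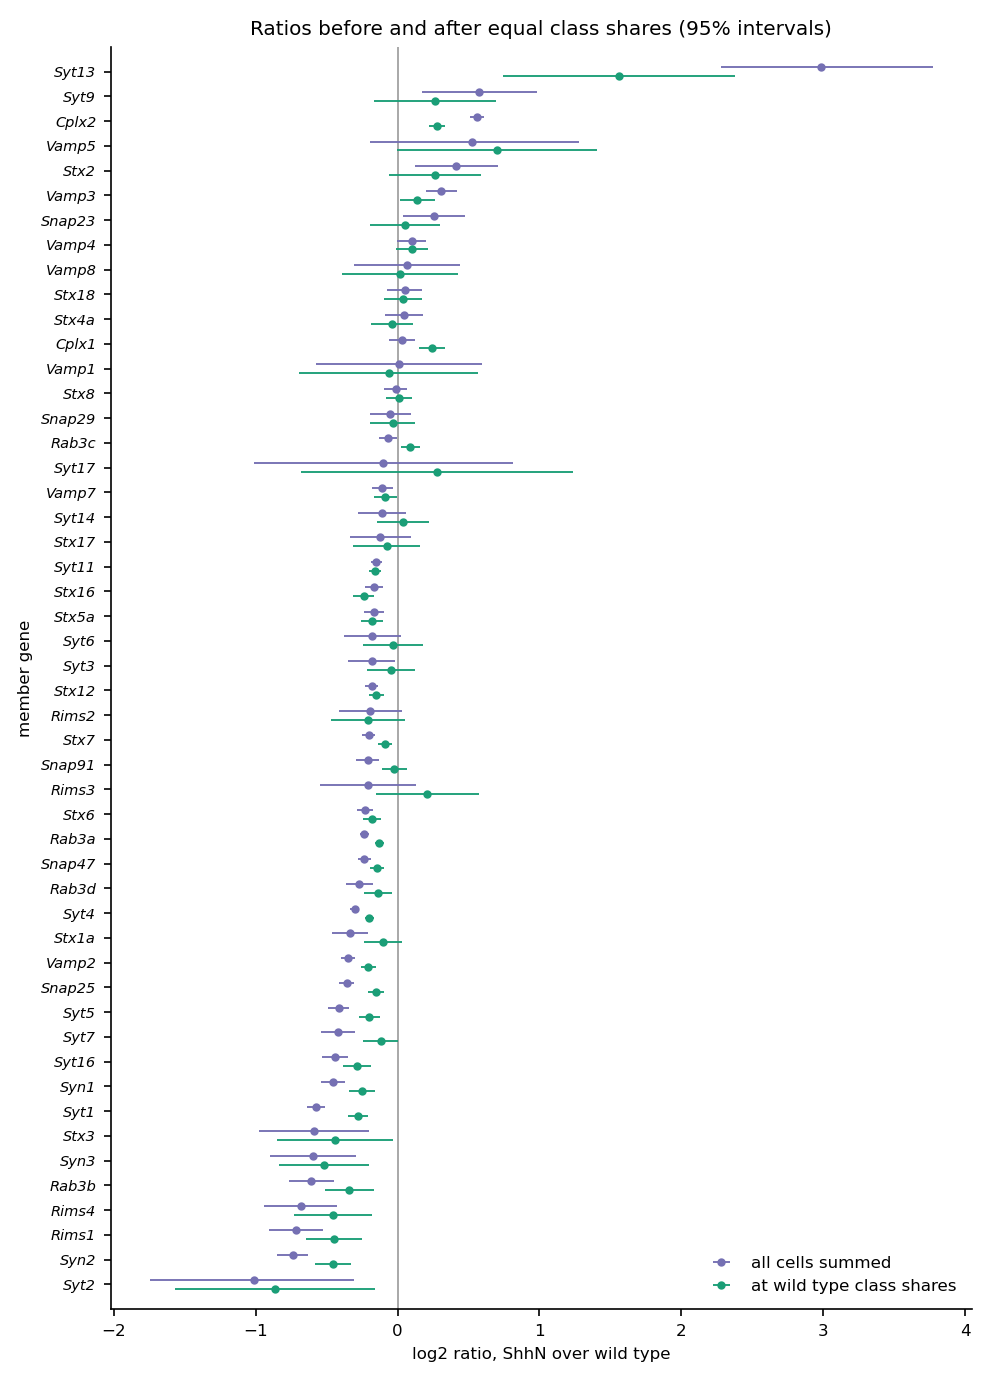
Log2 ratio (ShhN over wild type, horizontal axis) of 50 of the 51 members with 95% intervals, over all cells (purple) and with both libraries at wild type class shares (green). Most green points lie closer to 0 than the purple ones, and Syt13 remains the highest at 1.56.

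Within a class, few members differed past the size rule. Sums were compared in 9 classes or unnamed clusters with at least 100 cells in both libraries. No member was called in 5 of them. In radial glia-like cells 19 members were measured, and 0.605% of all genes were higher and 0.502% lower (1.11% in either direction). The figures were 24 members, 0.201% and 0.294% (0.495%) in neurogenic intermediate progenitor-like cells and 39 members, 0.507% and 1.03% (1.54%) in migrating neuron-like cells. They were 40 members, 0.0621% and 0.228% (0.29%) in deep layer neuron-like cells, and 37 members, 0.104% and 0.44% (0.544%) in cluster 2, an unnamed neuronal cluster led by Asic2. Of 31 members in dividing progenitor-like cells, Syt13 and Cplx2 were higher, where 0.638% of all genes were higher and 0.824% lower (1.46%). Of 43 in the upper layer, Stx3 was lower, where 0.349% were higher and 0.862% lower (1.21%). Of 36 in interneuron-like cells, Vamp3 was higher, where 2.29% were higher and 0.603% lower (2.9%). Of 36 in cluster 5, Syn2 was lower, where 0.201% were higher and 0.579% lower (0.78%).

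**Figure D4:**
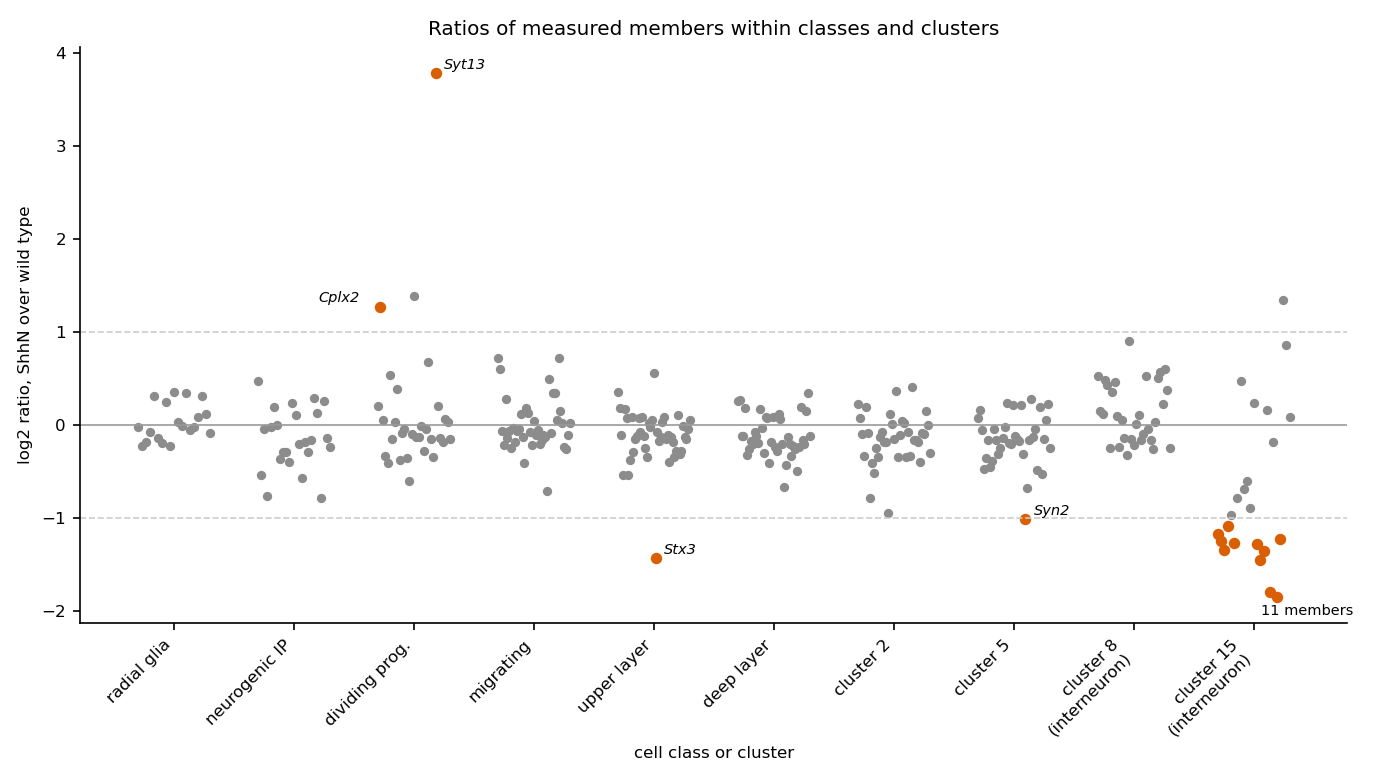
Log2 ratio (ShhN over wild type, vertical axis) of every member with at least 50 UMIs in 8 classes or clusters and, in place of the interneuron class, its clusters 8 and 15; grey points did not pass the size rule and orange points did, and dashed lines mark ratios of 1 and -1. Orange points are Syt13 and Cplx2 in dividing progenitors, Stx3 in the upper layer, Syn2 in cluster 5, and 11 members, all below -1, in interneuron cluster 15.

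Most Syt13 UMIs came from progenitor clusters of the ShhN library. In ShhN, 79 of the 175 UMIs (45.1%) came from cluster 10, dividing progenitor-like cells led by Top2a, and 42 (24%) from cluster 14, where Olig1 and Olig2 lead and which resembles intermediate progenitors of glia or of the olfactory bulb. The levels were 13.2 CPM [10.5, 16.5] in cluster 10 and 20.1 CPM [14.5, 27.2] in cluster 14, and 10.6 CPM [4.84, 20.1] from 9 UMIs in cluster 17, the other dividing cluster. In wild type, 10 of 18 UMIs came from interneuron cluster 8 (4.32 CPM [2.07, 7.94]), where ShhN had 11 UMIs (10.8 CPM [5.40, 19.4]). Wild type dividing progenitor-like cells had 1 UMI against 88, a log2 ratio of 3.79 [1.27, 9.11], and cluster 14 had 0 against 42. In the dividing class, too, Syt13 was measured only through its ShhN UMIs. At the floor of 3 UMIs, Syt13 was at least 2.20-fold higher in ShhN in cluster 14, where wild type had 47 cells. Radial glia-like cells had 0 and 1 UMI, and neurogenic intermediate progenitor-like cells 0 and 1.

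Shares of cells were also compared at equal depth. After thinning each cell to 4500 UMIs, 5.19% [3.72, 7.03] of 751 ShhN dividing progenitor-like cells had a Syt13 UMI, and 0 of 115 wild type cells, which allows a share of up to 2.61% by the limit of 3 counts used here for a count of 0. Without thinning the shares were 8.01% and 0.79%, at median depths of 8131 and 7950 UMIs. In cluster 14 the thinned share was 6.97% [4.31, 10.6] of 287 ShhN cells, and 0 of 43 wild type cells allows up to 6.98%, so that difference was not detectable at this depth. The vascular-like cells, which should lack the gene, had 0 of 35 and 0 of 30 cells, and ShhN barcodes with at most 50 UMIs, which hold free RNA, had 2.5 CPM of Syt13 from 3 UMIs. The dividing progenitor-like level in ShhN, 12.9 CPM [10.3, 15.9], lay above the interval of that free RNA level, which ended at 7.35 CPM.

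**Figure D5:**
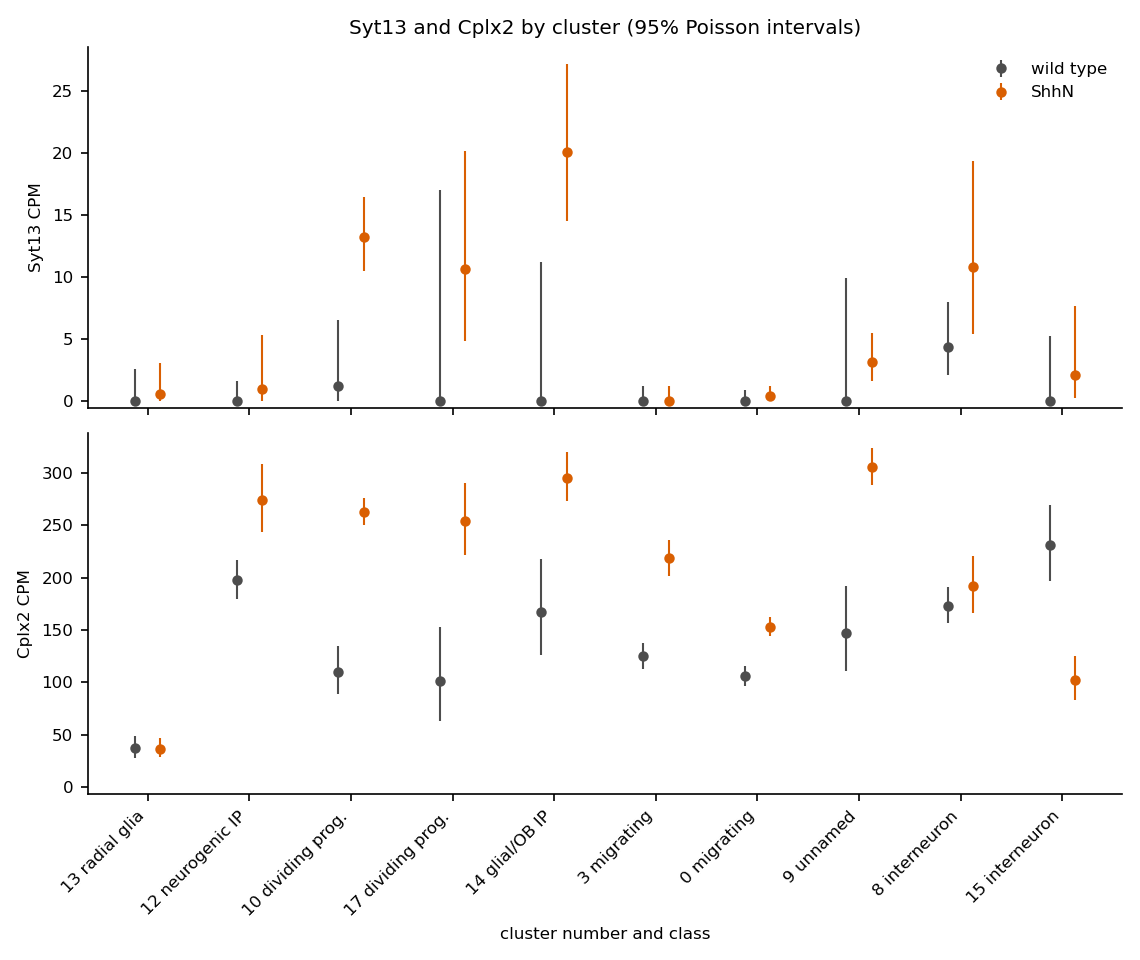
Level (CPM, vertical axes) of Syt13 (top) and Cplx2 (bottom) in 10 clusters with their class; points are library sums (grey wild type, orange ShhN) with 95% Poisson intervals. Syt13 is near 0 in wild type outside cluster 8 and reaches 13.2 and 20.1 CPM in ShhN clusters 10 and 14, while Cplx2 is higher in ShhN in clusters 12, 10, 17, 14, 3, 0 and 9, level in radial glia and lower in cluster 15.

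Within ShhN dividing progenitor-like cells, Syt13 and Cplx2 were compared between cells with and without a UMI of progenitor genes; these splits were chosen after the values were seen, and they are descriptions within 1 library. Cells with a UMI of Hes1, a Notch target of undifferentiated progenitors, had 26.0 CPM of Syt13 against 7.30 without (53 and 35 UMIs; log2 1.83 [1.19, 2.49]). Cells with a UMI of the hedgehog target Ptch1 had 21.8 against 6.69 (log2 1.70 [1.03, 2.41]), and with Hhip, another target, 30.5 against 9.80. Depth differed between such cells, with median UMIs of 8785 with and 7821 without Hes1. Eomes, the marker of neurogenic intermediate progenitors, did not separate Syt13 (13.8 and 11.5 CPM; log2 0.26 [-0.38, 0.93]) but did separate Cplx2, at 341 CPM with and 152 without (log2 1.17 [1.01, 1.32]). Neurog2, another neurogenic gene, separated both, with 17.9 CPM of Syt13 against 7.89 (log2 1.18 [0.50, 1.89]) and 342 CPM of Cplx2 against 182 (log2 0.91 [0.77, 1.05]). Both were also lower in cells with a UMI of the ventral genes Dlx2 and Gsx2. With Dlx2, Syt13 had 9 UMIs in 193 cells against 79 in 618 (log2 -1.57 [-2.75, -0.58]) and Cplx2 102 against 316 CPM. With Gsx2, Syt13 had 3.68 against 14.6 CPM (log2 -1.99 [-3.90, -0.58]) and Cplx2 89.3 against 294 CPM.

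Across clusters of at least 50 cells, the genes whose levels ran most like Syt13 were Dis3, Fen1, Pask and Prim1 over both libraries (Pearson r 0.831 to 0.816 on log2(CPM + 10), 21 clusters) and Ppp1r2, Parvb, Mamld1, Crtc2 and Lrrc8c in ShhN alone (0.799 to 0.762, 19 clusters). Clusters share libraries and depth, so these are descriptions. The member nearest to it was Cplx2 in both, with r of 0.571 and 0.569, and the median over the other members was -0.25 and -0.27.

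Cplx2 had intervals above 0 in 7 of the 11 classes or clusters where it was measured, more than any other member, and below 0 in interneuron-like cells. Dividing progenitor-like cells had 108 CPM in wild type (116 UMIs) and 262 in ShhN (1789 UMIs), a log2 ratio of 1.27 with an interval from 1 to 1.56. Both dividing clusters shared it, with 110 and 263 CPM in cluster 10 and 101 and 254 CPM in cluster 17. At 4500 UMIs per cell, 33.9% [25.3, 43.3] of wild type and 55.9% [52.3, 59.5] of ShhN dividing progenitor-like cells had a Cplx2 UMI, against 20.0% and 6.67% of vascular-like cells; unthinned, the dividing cells had 50% and 70%. Cluster 14 had 167 and 295 CPM, neurogenic intermediate progenitor-like cells 197 and 274 (log2 0.48 [0.26, 0.69]) and migrating neuron-like cells 114 and 172 (log2 0.60 [0.48, 0.72]). Radial glia-like cells did not follow, at 37.3 and 36.7 CPM (log2 -0.02 [-0.56, 0.52]), and vascular-like cells had 22.8 and 4.76 CPM. In the upper layer its ratio of 0.18 was -0.03 when cells needed 3000 UMIs and -0.01 at a Leiden resolution of 0.5.

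In dividing progenitor-like cells, markers of other classes also differed. The 18 interneuron markers summed to 318 CPM in wild type and 712 in ShhN, the 15 radial glia markers to 3240 and 2102, and the 12 neurogenic intermediate progenitor markers to 2157 and 1952, with no marker of these lists at 0 in either library. Their part in the Syt13 and Cplx2 ratios was not tested. The other 29 measured members in these cells had no call; Syt11 was lower (246 and 193 CPM; log2 -0.35 [-0.54, -0.15]), and Rab3a (92.4 and 95.8 CPM), Syt4 (122 and 111) and Snap25 (29.9 and 30.6) had intervals that spanned 0.

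In migrating neuron-like cells no member passed the size rule. Of 39 measured members, 6 intervals lay above 0 and 8 below, without the share of all genes beside them. The median log2 ratio was -0.07, beside -0.07 over all genes. Syt4 had 128 CPM in wild type and 211 in ShhN (950 and 2159 UMIs; log2 0.72 [0.61, 0.83]). The ratio held in both clusters of the class, at 182 and 265 CPM in cluster 0 and 51.3 and 76.7 in cluster 3, yet it depended on how the class was drawn. It was 1.10 with cells of at least 3000 UMIs and 1.03 with doublets kept, where Syt4 passed the rule, and 0.08 at a Leiden resolution of 2 and -0.05 with classes assigned cell by cell. Singled out after their values were seen, Cplx1 (11.6 and 19.0 CPM; log2 0.72 [0.34, 1.10]) and Syt1 (12.8 and 18; 0.49 [0.13, 0.86]) had intervals above 0, and Syn2 (51.8 and 31.6; -0.71 [-0.93, -0.50]) and Stx16, a syntaxin of the trans-Golgi (112 and 83.7; -0.42 [-0.56, -0.28]), had intervals below 0. Markers of the class itself summed to 2403 CPM in wild type and 2056 in ShhN, and upper layer markers to 2088 and 1883, so neither list was higher in ShhN. Interneuron markers summed to 68 and 27.3 CPM and division markers to 49.8 and 102 CPM; their part was not tested.

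Upper and deep layer neuron-like cells had 1 call between the libraries. In the upper layer the 8 members with most UMIs had ratios from -0.31 to 0.18, Syt4 the lowest (707 and 569 CPM; log2 -0.31 [-0.36, -0.27]) and Cplx2 the highest. The call was Stx3, a syntaxin of growing neurites and apical membranes, with 52 UMIs in wild type and 22 in ShhN (4.45 and 1.65 CPM; log2 -1.43 [-2.22, -0.69]). It came from cluster 4 (20 and 3 UMIs) and cluster 7 (25 and 10), and not from cluster 1 (7 and 9), and it was not called with at least 200 UMIs required, in thinned cells or with classes assigned cell by cell. In the deep layer, Syt4 had 368 and 261 CPM (log2 -0.50 [-0.59, -0.41]). The class holds cluster 16, a shallow cluster of 256 wild type and 85 ShhN cells with 1018 and 749 CPM of Syt4. Cluster 6 had 341 and 301 CPM, and cluster 11 had 131 and 108. The ratio of the class was -0.19 with cells of at least 3000 UMIs and -0.11 with at most 5% mitochondrial UMIs. The part of cluster 16 in these ratios was not tested. Cplx1 had 42.4 and 54.2 CPM in the upper layer (log2 0.35 [0.19, 0.52]) and 87.7 and 105 CPM in the deep layer (0.26 [0.10, 0.42]), both singled out after their values were seen.

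Cluster 5, an unnamed neuronal cluster led by Nrp2, Crym and Calb2 with 661 wild type and 372 ShhN cells, had less Syn2 in ShhN. Its level was 68.2 CPM in wild type (400 UMIs) and 33.7 in ShhN (105 UMIs), a log2 ratio of -1.02 [-1.34, -0.70], which was -0.95 under TMM scaling and just short of 1 in size with equal weight per cell, and was then not called. Among the members with most UMIs, Syt4 (418 and 298 CPM; log2 -0.49 [-0.60, -0.38]) and Snap25 (158 and 121; -0.38 [-0.56, -0.21]) were lower, and Rab3a was level (434 and 418; -0.05 [-0.15, 0.04]). Syt1, singled out after its values were seen, had 84.0 and 52.6 CPM (-0.68 [-0.94, -0.42]). Markers of migrating neurons summed to 2718 and 2245 CPM in this cluster, those of the deep layer to 1167 and 1194, and those of interneurons to 55.9 and 32.4, with 1 of 18 and 4 of 18 at 0; their part was not tested.

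Interneuron-like cells held 2 clusters in which the members differed between libraries in unlike ways, a split examined after seeing the data. In cluster 8, led by Sst and Lhx6 (606 and 239 cells), 0 of 31 measured members passed the size rule (0.358% of all genes higher, 0.249% lower, 0.608% in all). There, 6 intervals lay above 0 and 0 below, a count without the share of all genes beside it. Members made up 33.9 and 36.7 UMIs per 10000. Rab3a had 364 and 395 CPM there, Syt1 340 and 330, and Snap25 203 and 278 (log2 0.46 [0.24, 0.67]). In cluster 15, led by Dlx6os1, Cxcl14, Htr3a and Sp8 (177 and 179 cells), 11 of 23 measured members were lower (6.99% of all genes) and 0 higher (4.77%; 11.8% in either direction), and the median log2 ratio was -0.97, beside -0.03 over all genes. Members made up 31 and 18.1 UMIs per 10000 there. Rab3a had 419 CPM in wild type and 176 in ShhN (294 and 167 UMIs; log2 -1.25 [-1.53, -0.97]), Vamp2 201 and 85.5, Syt1 138 and 53.9, Cplx2 231 and 102, and Snap25 121 and 57.0. The remaining 6 were Syn1, Syn2, Snap91, an adaptor of clathrin-coated vesicles, Rab3c, Syt6 and Syt16, with ratios from -1.27 to -1.85. Syt11 did not follow (151 and 169 CPM; log2 0.16 [-0.20, 0.53]).

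Cluster 15 of ShhN also held markers of progenitors. The 15 division markers summed to 28.5 CPM in wild type, with 5 of them at 0, and to 714 CPM in ShhN, with none at 0. The radial glia list had 749 and 1638 CPM (3 and 0 of 15 at 0), the neurogenic intermediate progenitor list 282 and 928 CPM (4 and 3 of 12 at 0) and the interneuron list 4011 and 4239 CPM (0 and 1 of 18 at 0). Median depth also differed, at 3674 and 5149 UMIs per cell, and the part of these differences in the ratios was not tested beyond the comparisons that follow. Among cells without a UMI of any division marker (158 and 81 cells), 0 of 18 measured members passed the size rule (2.04% of all genes higher, 2.66% lower, 4.7% in all). Intervals lay below 0 for 8 members, without the share of all genes beside that count. The median was -0.54, beside -0.04 over all genes. Rab3a in those cells had 429 and 218 CPM (log2 -0.98 [-1.35, -0.62]). When cell cycle genes were left out of the clustering, the Htr3a cluster held 162 wild type and 37 ShhN cells, and the ratios over all interneuron-like cells turned from -0.58 to 0.11 for Syt1, from -0.38 to 0.09 for Rab3a, from -0.30 to 0.25 for Vamp2 and from -0.33 to 0.20 for Cplx2. Clustering with synaptic genes allowed gave 0.11, 0.09, 0.25 and 0.20.

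Vamp3, the general endosomal VAMP, was the 1 call over all interneuron-like cells. It had 50 UMIs in wild type and 72 in ShhN (16.6 and 36.7 CPM; log2 1.15 [0.60, 1.70]). In cluster 15 it had 14 and 48 UMIs (20.0 and 50.7 CPM; log2 1.34 [0.46, 2.32]), and in cluster 8 it had 36 and 24 (15.6 and 23.6 CPM; 0.60 [-0.21, 1.39]). At equal depth, 7.81% of wild type and 19.7% of ShhN interneuron-like cells had a Vamp3 UMI, against 31.4% and 43.3% of vascular-like cells, which express the gene. The ratio was 0.44 with cell cycle genes left out of the clustering and no longer called.

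In ShhN, 584 of 8072 cells had a Shh UMI; whether plasmid transcripts are counted under Shh is not given in the sources used here. Between these cells and the 7488 others, 0 of 48 measured members passed the size rule, where 1.09% of all genes did. Within classes 1 did, Syt7 in cluster 5, where 30 members did not pass and 20 were not measured. Syt7 had 9 UMIs in 11 cells with a Shh UMI and 70 in 361 without (80.1 and 23.3 CPM, log2 1.78 [0.59, 2.79]). The share of all genes called there is not given here, so this is a value of 1 gene, not a result about the members. Syt13 had 20 and 155 UMIs (4.44 and 2.94 CPM; log2 0.60 [-0.15, 1.27]). Syt4 was higher in cells with a Shh UMI, at 417 and 294 CPM over all cells (log2 0.50 [0.43, 0.57]), 310 and 205 CPM in migrating neuron-like cells (0.60 [0.38, 0.82]) and 414 and 249 CPM in deep layer neuron-like cells (0.74 [0.53, 0.94]). Shh itself was among the 10 leading genes of upper layer cluster 4, which had the highest Syt4 level of any cluster in each library (1263 CPM in wild type and 1146 in ShhN).

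Of 57 other synaptic genes on a separate list, 56 were measured over all cells, 3 of them lower and 0 higher, where 1.83% of all genes were lower and 2.84% higher. Among the lower ones were Slc32a1, the vesicular GABA transporter (9.94 and 4.19 CPM; log2 -1.25), and Rph3a, a RAB3 effector (649 and 344 UMIs; -1.21). Both were highest in interneuron-like cells, whose share of cells was also lower in ShhN, and there Slc32a1 had 136 and 99.3 CPM and Rph3a 168 and 111 CPM, with no call. Calls within classes were few, beside the shares of all genes given above: Nrxn3 was lower in migrating neuron-like cells (64 and 19 UMIs; -2.22), Stxbp5 (-1.87) and Atp6v1g2 (-1.09) were lower in cluster 5, and Synpr, a vesicle membrane protein, was higher in interneuron-like cells (43 and 67 UMIs; 1.26).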

How the data were processed

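The authors deposited UMI counts per gene and droplet barcode, not normalized, as 1 matrix for each group; the tools named, per the submitters' processing notes, are Seurat 3, StringTie and Cell Ranger, and the build is mm10; which step each served is not given in the sources used here. Matrices were matched to groups by their control and experimental prefixes. Barcodes with at least 2300 UMIs, 800 genes and at most 10% mitochondrial UMIs were kept (7233 wild type, 8314 ShhN), and scrublet doublets (expected 6%) were removed, 3.88% and 2.91%. Cells were clustered with scanpy 1.11.5 (2000 variable genes without members, other synaptic genes, SHH targets, globins, mitochondrial genes and sex-linked genes; 30 components, 15 neighbours, Leiden resolution 1 with leidenalg 0.10.2). Clusters were named from marker lists; how lists were scored was settled after the clusters were seen. Members and lists were chosen with earlier results of these data known.

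Counts were summed per class and library. Ratios of CPM carry exact conditional binomial 95% intervals, CPM exact Poisson and shares Clopper-Pearson intervals, with 3 counts as the limit for a count of 0 (scipy 1.17.1). A gene was measured at 50 UMIs over both sums and called at a log2 ratio of 1 in size with the interval bound nearest 0 at 0.5 or beyond. Every member could be named; ratios with intervals were given for called members, the 8 members with most UMIs in a comparison and Syt13, and others are marked as singled out. Free RNA came from barcodes with 1 to 50 UMIs and made up 3.43% to 6.74% of UMIs, except in erythroid-like cells, where the estimate was 0. TMM factors came from edgeR 4.0.16. On simulated counts for 13028 genes over all cells, 100% of 4-fold changes in either direction and 98% of 8-fold decreases were recovered, and 2 unchanged genes were called. In dividing progenitor-like cells, 90% of 4-fold and 78% of 8-fold decreases were recovered, and 4 unchanged genes were called. The simulated counts carried Poisson error alone. The 95.5% of intervals that held the true ratio therefore say nothing about variation between cells, embryos or libraries. Gene positions (50 of 51 members matched) and promoters come from GRCm38; Snap91 is a clathrin adaptor that shares only its symbol with the SNAREs. Alternatives are in the closing section. A few genes with values are not reported here.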

Additional observations from a re-analysis of the deposited data

How the results depend on the processing

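No paired analysis was possible because the barcodes could not be traced to the numbered samples, and for the same reason no sample could be left out in turn. The counts were 1 member higher and 0 lower over all cells, and 3 higher and 1 lower within the 7 named classes compared. With at least 200 UMIs required, they were 0 higher over all cells, and 1 higher and 0 lower within classes (Syt13, Stx3 and Vamp3 have fewer). In cells thinned to 4500 UMIs they were 1 higher and 4 lower within classes, the lower ones Syt5, Syt1, Vamp2 and Syt16 in interneuron-like cells. The higher one was Cplx2 in dividing progenitor-like cells, and the within-class calls of Syt13, Stx3 and Vamp3 were lost. With at least 3000 UMIs per cell, the dividing class was not compared. With at most 5% mitochondrial UMIs, 1 member was lower over all cells (Syt2) and 2 within classes (Stx3 and Syt16). Clustering with synaptic genes gave 0 higher within classes (Vamp3 was not called, and the dividing class, with under 100 wild type cells, was not compared), and assigning classes cell by cell gave 0 lower. Clusters with at least 100 cells in both libraries in place of their class, added after seeing the data, gave 0 higher and 11 lower, all in cluster 15; the dividing clusters 10 and 17, which hold the Syt13 and Cplx2 calls, and cluster 16 were too small and were not compared. Doublets kept, TMM scaling, equal weight per cell and free RNA subtraction left these 4 counts within 1.5 times. The summed members at equal class shares had a log2 ratio of -0.12; it was -0.0695 with cell cycle genes left out of the clustering, -0.0678 with synaptic genes allowed, -0.105 at resolution 0.5, -0.161 with classes assigned cell by cell and -0.0854 with ShhN shares, below 0 in all. TMM scaling moved ratios up by 0.01 to 0.12, most in dividing progenitor-like (0.12) and deep layer neuron-like cells (0.11), and took the summed members over all cells from -0.20 to -0.11; no interval went from below 0 to above it or back. Depth limits members with few UMIs: 32 of 51 members in radial glia-like and 27 in neurogenic intermediate progenitor-like cells had under 50 UMIs and were not measured.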

Other observations

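Some classes were too small in 1 library for the comparison and are given as values. Cluster 9, led by Tfap2d, Gcg and Sstr2, held 76 wild type and 693 ShhN cells and had 148 and 305 CPM of Cplx2, 164 and 347 CPM of Syt4 and 351 and 351 CPM of Rab3a. Cajal-Retzius-like cells (66 and 30) had 80.6 and 172 CPM of Syt4 and 163 and 192 CPM of Syn2. Cluster 14 (47 and 315 cells) had 115 and 77.5 CPM of Rab3a.

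Syt9, a synaptotagmin of fast release and secretory granules, had 81 UMIs in wild type and 148 in ShhN over all cells (log2 0.57 [0.17, 0.98]). In dividing progenitor-like cells it had 1 and 44 UMIs (0.934 and 6.44 CPM; log2 2.79 [0.23, 8.12]) and was below the count needed there; at a Leiden resolution of 0.5 it passed the size rule in that class. Radial glia-like cells had 4 and 20 UMIs (2.76 and 11.1 CPM). These genes were singled out after their values were seen.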
